A study of Mus musculus with 18 samples.

Results

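Mammary fibroblasts of the mouse can be divided by CD26, the cell surface peptidase encoded by Dpp4, and the comparison described here set CD26+ against CD26- normal fibroblasts (NFs) while both were exposed to medium conditioned by tumor cells (tumor CM). It rests on 12 of the 18 RNA sequencing libraries of the series, 6 of CD26- NFs and 6 of CD26+ NFs, chosen by the labels for cell type and medium. Each of 6 tumor cell lines had supplied the medium of 1 library of each cell type, so the libraries formed 6 pairs by line. The lines (13-MCB-17, 10-SJK-221, 18-MCB-12, 13-MCB-44, 13-MCB-90 and 13-MCB-138) came from tumors of mice with WapCre, Cdh1F/F and a further floxed allele, a model of invasive lobular carcinoma in which Cre under a milk protein promoter removes E-cadherin from mammary epithelium. The NFs were from FVB/n mammary glands. The donors were female mice of 8 to 16 weeks, floxed mice without the Cre transgene or mTmG reporter mice, and which of these supplied the libraries is not given. Glands of several mice were pooled for a sort, and cells were grown on collagen I before use. The sort removed cells with EpCAM, CD49f, CD45 or CD31 and then split the remainder by CD26, and the cultures received the medium for 7 days. The remaining 6 libraries, 3 of each cell type, were grown in control medium and are used only where a value in tumor CM is set beside its value there. Nothing in the labels says that the libraries of a cell type came from separate sorts, so the p-values measure the spread between these libraries.

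CD26+ fibroblasts are known from several tissues as the adventitial or universal type and carry Pi16 and Dpt. Fibroblasts secrete collagens, proteoglycans and proteases, and they also release chemokines, complement components and acute-phase proteins that act on leukocytes. Under the influence of tumor cells, fibroblasts are commonly described as inflammatory when such secreted mediators prevail, or as myofibroblastic when contractile proteins and collagens prevail.

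The 12 libraries held 11240481 to 13890291 counts each, and no pair of libraries of a cell type agreed within sampling noise. Levels are given in CPM, counts scaled to a common library size, which do not correct for transcript length, so that they are compared between samples and not between genes. Levels of single genes in tumor CM were scaled over these 12 libraries. Levels in control medium and summed marker levels were scaled over all 18, so levels of a gene in both media are only roughly comparable. Fold changes are log2 values of CD26+ over CD26- NFs from a fit with the tumor line as a block, with their standard error (SE, n = 6 pairs). They are adjusted by the Benjamini-Hochberg method over 13344 genes to a false discovery rate (FDR) with edgeR's quasi-likelihood test. The sorting marker itself was low in these cultures. Dpp4, the gene of CD26, ran from 0.0777 to 0.885 CPM (median 0.328) in CD26- NFs and from 0.709 to 7.76 CPM (median 3.17) in CD26+ NFs, with a log2 fold change of 3.18 ± 0.39 (FDR 9.63e-05). It was higher in CD26+ NFs in each of the 6 pairs, although the lowest CD26+ library lay under the highest CD26- library. In control medium the same gene stood at 0.0795 ± 0.086 CPM (SD over 3 libraries) in CD26- NFs and at 0.0517 ± 0.0449 CPM in CD26+ NFs, where the difference did not pass the test (FDR 0.839), so that Dpp4 did not separate those 6 libraries.

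At an FDR under 0.05 and a log2 fold change beyond 2, 171 genes were higher and 301 were lower in CD26+ NFs, which is 1.28% and 2.26% of the genes tested. At the FDR alone, 4025 genes were higher (30.2%) and 4069 were lower (30.5%), and the median log2 fold change over all tested genes was -0.01. Of the 472 genes past both limits, 451 were protein coding, and in 445 the ranges of the 2 groups did not overlap, as was the case for 32.7% of all tested genes. The fit by line favors genes of 1 direction in all pairs, so the following counts only describe the genes it chose. All 301 lower genes were lower within each of the 6 pairs, and 170 of the 171 higher genes were higher within each. The exception lay in the pair of line 13-MCB-138, where the median difference of the higher genes was 2.21 on the log2 scale, against 2.50 to 2.83 in the other 5 pairs. Many of the genes were close to absent on one side. In CD26- NFs 70 of the higher genes had a mean under 1 CPM, and in CD26+ NFs 117 of the lower genes did. RNA from bulk cultures was measured, so that fewer cells of a type and less RNA per cell cannot be told apart.

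**Figure D1:**
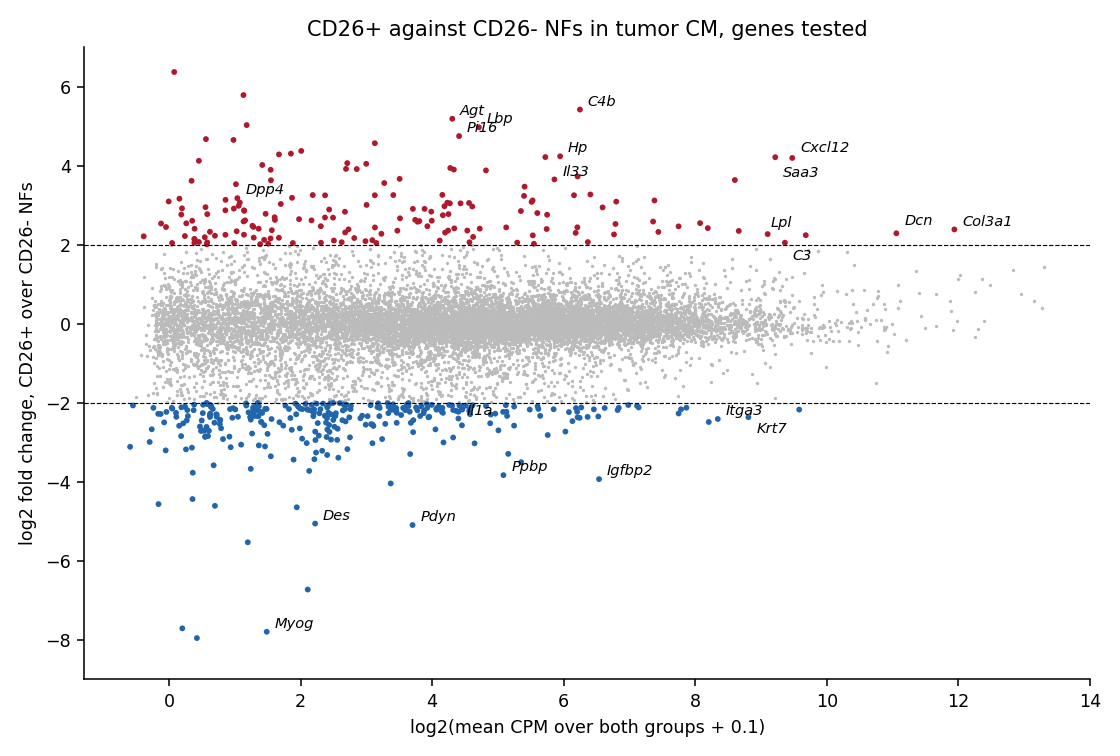
Log2 fold change of CD26+ over CD26- NFs in tumor CM (vertical axis) against log2 of the mean CPM over both groups plus 0.1 (horizontal axis) for the tested genes, 1 point per gene. Colored points are the 171 higher (red) and 301 lower (blue) genes past both limits, dashed lines mark log2 fold changes of 2 and -2, and Cxcl12 and Saa3 stand out at high CPM with log2 fold changes of 4.20 and 4.22; Myh3, with no count in CD26+ NFs, lies below the axis.

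Transcripts of other cell types were present and moved with the cell type. The summed level of 25 luminal and general epithelial markers ran from 3468 to 5509 CPM in CD26- NFs and from 706 to 1693 CPM in CD26+ NFs, with a ratio of 3.25 to 5.59 within the pairs. All 20 markers tested were lower in CD26+ NFs, with log2 fold changes from -2.94 to -1.66 and a median of -2.16, and 14 of them were among the 301 lower genes. The keratin gene Krt18 ran from 1020.1 to 1582 CPM (median 1255) in CD26- NFs and from 189 to 452 CPM (median 263) in CD26+ NFs, Krt7 fell from a median of 794 to 134 CPM, and the epithelial transcription factor gene Elf3 fell with a log2 fold change of -2.94 ± 0.17 (SE). Cdh1, which encodes E-cadherin, and Epcam, whose product was used to remove epithelial cells in the sort, changed by -2.16 ± 0.12 and -1.78 ± 0.11. The milk protein genes Wap, Lalba and Csn2 had at most 3 counts in any of the 12 libraries. Of 10 basal epithelial markers tested, 7 were lower and none higher (median -1.44), led by Sfn at -1.89 ± 0.13, whereas the basal regulator Trp63 did not pass the test (-0.23 ± 0.26). Their summed level ran from 765 to 1379.5 CPM in CD26- NFs and from 206 to 684 CPM in CD26+ NFs. The same epithelial lists also differed in control medium, where the luminal sum was 4929 to 5534 CPM in CD26- NFs and 689 to 1385 CPM in CD26+ NFs.

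The mean log2 CPM of the epithelial markers ranged from 5.52 to 6.29 in CD26- NFs and from 3.37 to 4.86 in CD26+ NFs, with no overlap. When this mean was added to the fit as a covariate, 1 gene was higher and 0 were lower at the FDR and the log2 limit, and the same numbers were found at the FDR alone. The covariate by itself separates the cell types and leaves few degrees of freedom, so the loss of calls cannot decide what made the differences. The contribution of the epithelial transcripts and that of the sorted cell type cannot be told apart in these libraries, and this limit applies to every difference given below. With the marker genes of epithelium and skeletal muscle set aside, 171 higher and 278 lower genes remained past both limits.

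Among the other marker lists, immune transcripts were scarce. Of 16 immune markers, 11 (among them Ptprc, Itgam, Adgre1 and Cd3e) had at most 3 counts in each of the 12 libraries, and the summed level ran from 24.1 to 34.5 CPM in CD26- NFs and from 21.9 to 30.8 CPM in CD26+ NFs. That sum was largely Csf1r, the receptor of Csf1 (0.26 ± 0.12, not past the FDR), and of the 4 markers tested S100a8 (-1.93 ± 0.30) and Cd68 (-1.09 ± 0.21) were lower. The sum of 15 endothelial markers ran from 15.1 to 21.2 CPM and from 16.1 to 24.6 CPM in the respective groups. Flt1, a receptor of vascular endothelial growth factors, was higher by 0.85 ± 0.19 and the endothelial cadherin gene Cdh5 was lower at -2.15 ± 0.20. Of 6 Schwann cell markers tested 3 were lower, among them Mbp (-2.44 ± 0.16) and the neuregulin receptor gene Erbb3 (-2.09 ± 0.12), and 3 did not pass. The list summed to 50.0 to 73.5 CPM in CD26- NFs and 12.8 to 25.3 CPM in CD26+ NFs. That sum was largely Erbb3 and Mbp, so that it does not by itself stand for Schwann cells. Sox10, another marker on the list, had 54 counts over the CD26- libraries and 21 over the CD26+ libraries. Among 9 pericyte and smooth muscle genes 5 were higher and 2 lower: the mitochondrial gene Ndufa4l2 was higher by 3.13 ± 0.23, whereas Myh11 (-2.52 ± 0.30), the myosin of smooth muscle, and Mcam (-1.15 ± 0.14) were lower.

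Skeletal muscle genes had the lowest median of all lists. All 9 tested markers of 18 were past both limits and lower in CD26+ NFs, with a median log2 fold change of -4.65. A gene was tested when its counts sufficed in either cell type. Apart from Acta1, these 9 passed that filter through CD26- NFs alone. Their shared direction and the rank of the list were therefore largely set by the filter. Myh3, the embryonic myosin heavy chain gene, ran from 5.51 to 34.7 CPM (median 10.2) in CD26- NFs and had 0 counts in all 6 CD26+ libraries. Against a floor of 3 counts over the group, its level was at least 344-fold lower in CD26+ NFs. Myog, which encodes the myogenic regulator myogenin, had 16 to 186 counts in each CD26- library and 1 count over the 6 CD26+ libraries, a ratio of 395 with an exact 95% counting interval of 70.6 to 15700. That count lay in replicate 13, and the fitted log2 fold change of Myog (-7.80 ± 0.35) was -9.01 without replicates 4 and 13. The related regulator gene Myod1 had 145 counts over the CD26- libraries and 1 over the CD26+ libraries, a ratio of 137 (interval 24.3 to 5470). Des, the gene of the muscle intermediate filament desmin, was measured from 2.62 to 19.2 CPM (median 7.83) in CD26- NFs and from 0.168 to 0.304 CPM (median 0.253) in CD26+ NFs, and the acetylcholine receptor subunit gene Chrna1 changed by -4.64 ± 0.25 (SE). Both regulators of muscle stem cells, Pax7 and Myf5, were near 0 throughout, with 11 and 8 counts over the CD26- libraries and none in the CD26+ libraries. The list summed to 65.0 to 200.3 CPM in CD26- NFs and to 8.25 to 21.5 CPM in CD26+ NFs, and within the pairs the ratio ran from 5.16 to 19.3. The part of muscle transcripts in the differences of other genes was not tested.

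**Figure D2:**
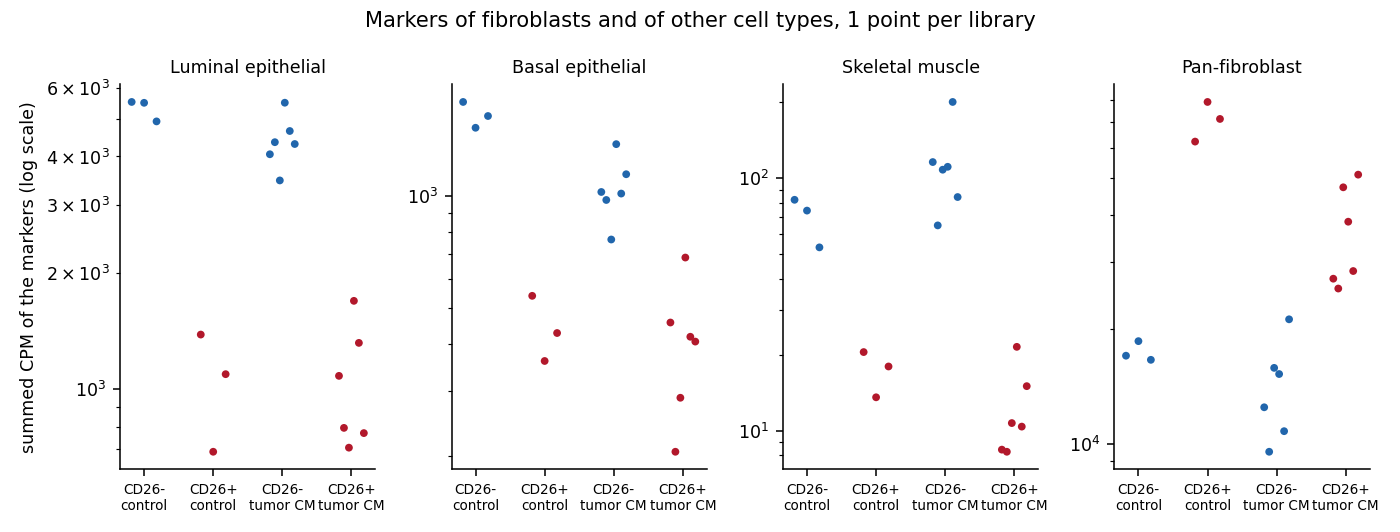
Summed CPM (log scale) of the markers of luminal epithelium, basal epithelium, skeletal muscle and fibroblasts in each library, 1 point per library, for CD26- NFs (blue) and CD26+ NFs (red) in control medium (n = 3 each) and tumor CM (n = 6 each). In tumor CM the luminal sum is 3468 to 5509 CPM in CD26- NFs and 706 to 1693 CPM in CD26+ NFs, whereas the fibroblast sum is 9526 to 21240 CPM and 25589 to 50995 CPM.

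The promoters of 2 of these muscle genes show the sequence to which myogenic regulators of the MyoD family are known to bind, and both are printed from RefSeq (GRCm38.p6, 250 bases before to 50 after the transcription start, 5′ to 3′). Capitals mark the E-box CAGCTG, which is its own reverse complement.
Chrna1 (chr2:73580289-73580588, minus strand): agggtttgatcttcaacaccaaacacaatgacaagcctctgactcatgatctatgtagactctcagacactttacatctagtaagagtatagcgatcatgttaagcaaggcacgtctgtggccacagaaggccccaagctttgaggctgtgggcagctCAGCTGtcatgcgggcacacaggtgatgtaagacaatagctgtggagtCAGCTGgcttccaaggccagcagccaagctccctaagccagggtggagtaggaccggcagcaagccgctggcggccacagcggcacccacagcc
Des (chr1:75360042-75360341, plus strand): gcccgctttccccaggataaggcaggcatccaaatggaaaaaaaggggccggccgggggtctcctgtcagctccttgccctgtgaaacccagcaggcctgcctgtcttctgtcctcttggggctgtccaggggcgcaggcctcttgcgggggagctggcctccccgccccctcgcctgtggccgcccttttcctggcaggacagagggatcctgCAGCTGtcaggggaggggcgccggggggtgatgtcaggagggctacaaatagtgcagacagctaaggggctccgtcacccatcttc
The 6 letters start 92 and 44 bases before the transcription start of Chrna1 and 36 bases before that of Des. They occurred in a window of 5 of the 9 tested muscle genes (Acta1, Chrna1, Des, Mylpf and Tnni1) and in 16.3% of 32851 promoter windows. A gene counted if any of its windows held the letters, but the share is over single windows, so these measures are unlike.

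The genes furthest above in CD26+ NFs, among those of at least 10 CPM whose groups did not overlap, were led by C4b. This complement gene (chr17:34728380-34743882, GRCm38) ran from 1.70 to 8.25 CPM (median 2.68) in CD26- NFs and from 103 to 239 CPM (median 145) in CD26+ NFs, which made a log2 fold change of 5.43 ± 0.24. Reads of C4b can be divided with its close copy C4a (2.92 ± 0.25). Agt, which encodes angiotensinogen, the precursor of angiotensin, ran from 0.141 to 3.90 CPM (median 0.616) in CD26- NFs and from 21.6 to 84.4 CPM (median 29.8) in CD26+ NFs (log2 fold change 5.19 ± 0.23). Lbp, whose product carries lipopolysaccharide to its receptor, ran from 0.919 to 2.48 CPM (median 1.54) in CD26- NFs and from 40.1 to 68.2 CPM (median 44.0) in CD26+ NFs (4.98 ± 0.15). Pi16, a marker of adventitial fibroblasts, ran from 0.981 to 2.84 CPM (median 1.09) in CD26- NFs and from 20.9 to 64.9 CPM (median 41.2) in CD26+ NFs (4.75 ± 0.27). All 6 CD26+ libraries lay far above all 6 CD26- libraries for these 4 genes. The adhesion molecule gene Chl1 was higher by 4.57 ± 0.24, Hp, the gene of the hemoglobin-binding protein haptoglobin, by 4.24 ± 0.30, the guidance factor gene Draxin by 4.22 ± 0.16, the kininogen gene Kng2 by 4.07 ± 0.29, and Cyp7b1, an oxysterol hydroxylase gene, by 3.95 ± 0.10. Cxcl12 (chr6:117168535-117181367), the chemokine that binds Cxcr4 and Ackr3, was both among the largest changes and among the higher genes of highest mean CPM, a scale on which long transcripts collect more reads. It ran from 36.9 to 126 CPM (median 74.2) in CD26- NFs and from 751 to 1860.5 CPM (median 1338) in CD26+ NFs, which made a log2 fold change of 4.20 ± 0.31. The FDR of each of these 10 genes was 3.94e-06 or lower. By mean CPM, the collagen gene Col3a1 (2.39 ± 0.08), the small proteoglycan gene Dcn (2.29 ± 0.18), the lipase gene Lpl (2.25 ± 0.13) and the acute-phase gene Saa3 (4.22 ± 0.47) joined Cxcl12 as the 5 highest of the higher genes.

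Among the genes furthest below in CD26+ NFs, Pdyn, the precursor of dynorphin opioid peptides, ran from 4.10 to 34.6 CPM (median 29.0) in CD26- NFs and from 0.0759 to 2.32 CPM (median 0.371) in CD26+ NFs, which made a log2 fold change of -5.09 ± 0.28. Its CD26- level was lowest in line 13-MCB-17. Without the pair of replicates 7 and 16 the log2 fold change of Pdyn was -5.75. Igfbp2, which encodes a binding protein of insulin-like growth factors, ran from 79.0 to 256 CPM (median 171) in CD26- NFs and from 8.86 to 15.4 CPM (median 9.97) in CD26+ NFs (-3.93 ± 0.19). The platelet chemokine gene Ppbp ran from 32.5 to 78.6 CPM (median 69.4) in CD26- NFs and from 2.24 to 7.52 CPM (median 4.11) in CD26+ NFs (-3.83 ± 0.20). Tnfsf15, a ligand of the tumor necrosis factor family, fell from a median of 75.7 to 6.42 CPM (-3.50 ± 0.25). In each of these 4 genes every CD26+ library lay below every CD26- library, which the rule that chose them required. The remainder were the prolactin family gene Prl8a9 (-4.04 ± 0.33), the cytochrome gene Cyp4a12b (-3.39 ± 0.20), whose reads can be divided with near copies, the cornified envelope gene Lce1g (-3.30 ± 0.15), the membrane lipid raft gene Mal (-3.29 ± 0.16) and Nup62cl (-3.17 ± 0.18). With Myh3, these were the 10 lower genes named by size, and the largest FDR among them was 2.56e-05. The 5 lower genes of highest mean CPM were Krt18, Krt7, the integrin subunit genes Itga3 (-2.41 ± 0.15) and Itga2 (-2.12 ± 0.11), whose products are carried by epithelial cells among others, and Igfbp5 (-2.49 ± 0.22). Igfbp5 was the only one of the 5 whose groups overlapped, with ranges from 134 to 771 CPM (median 569) in CD26- NFs and from 15.6 to 207 CPM (median 88.8) in CD26+ NFs.

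Acute-phase proteins are plasma and tissue proteins that rise in inflammation, and complement is the cascade of proteases that tags and lyses microbes and cells. The counts of each gene list at the FDR stand beside 30.2% higher and 30.5% lower over all tested genes, and a list near these shares is not set apart by its count. Of 12 acute-phase and lipopolysaccharide sensing genes tested 8 were higher, 6 of them past the log2 limit, 2 were lower and 2 did not pass the FDR, with a median of 1.47. The 6 were Lbp, Hp, Saa3, Steap4, a metalloreductase gene (3.09 ± 0.12), Tril, an accessory gene of Toll-like receptor signaling (2.63 ± 0.11), and the pentraxin gene Ptx3 (2.27 ± 0.18). Tlr4, the lipopolysaccharide receptor gene, was higher by 0.55 ± 0.10 and its co-receptor gene Cd14 lower at -0.86 ± 0.11. The iron siderophore-binding lipocalin gene Lcn2 was lower at -1.20 ± 0.30 (FDR 0.00642), but was lower in only 5 of 6 pairs and had an FDR of 0.061 without the block. Of 12 complement genes tested 8 were higher and 3 lower, with a median of 1.76. The higher ones covered the classical pathway, with C1s1 (3.09 ± 0.17) and C1ra (2.76 ± 0.14), both of which have close copies, the central component C3 (2.05 ± 0.29), and the inhibitor gene Serping1 (1.84 ± 0.18). Lower were the lectin pathway protease gene Masp1 (-1.31 ± 0.13) and the membrane-bound inhibitor genes Cd59a (-1.55 ± 0.12) and Cd55 (-1.23 ± 0.08).

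For several of these genes the pair of line 13-MCB-138 stood apart, and with 1 library of each cell type per line the line and the library cannot be told apart. Saa3 ran from 11.4 to 135 CPM (median 47.2) in CD26- NFs and from 24.4 to 1723 CPM (median 1133) in CD26+ NFs, and the lowest value of each group was that of line 13-MCB-138. In that line Saa3 stood at 11.4 CPM in CD26- NFs and 24.4 CPM in CD26+ NFs, so that the groups overlapped although each pair differed in the same direction. C3 ran from 192 to 329.7 CPM (median 229) in CD26- NFs and from 270.4 to 1405 CPM (median 1196) in CD26+ NFs, again with the lowest CD26+ value in line 13-MCB-138, whereas its CD26- value in that line was 236 CPM, inside the range of the group. The interleukin gene Il33 and the lysophospholipase gene Enpp2, which makes lysophosphatidic acid, had their lowest CD26+ values in the same line, 22.8 and 5.76 CPM against 39.4 to 227 and 19.8 to 38.9 CPM in the other 5, and their CD26- values there (6.65 and 4.26 CPM) also lay inside the group. By the spread of the difference over lines, Saa3, Il33 and Prl8a9 were the most variable of the genes past both limits with at least 10 CPM (SD 1.59, 1.53 and 1.38 on the log2 scale). For C4b, Lbp and Hp the CD26+ values in line 13-MCB-138, 151, 44.3 and 103 CPM, lay inside the range of the other lines, but the CD26- values were the highest of the group (8.25, 2.48 and 14.2 CPM). The log2 differences of these 3 genes were therefore also smallest in that pair, at 4.17 for C4b (5.13 or more in the others), 4.07 for Lbp (4.55 or more) and 2.85 for Hp (3.71 or more).

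**Figure D3:**
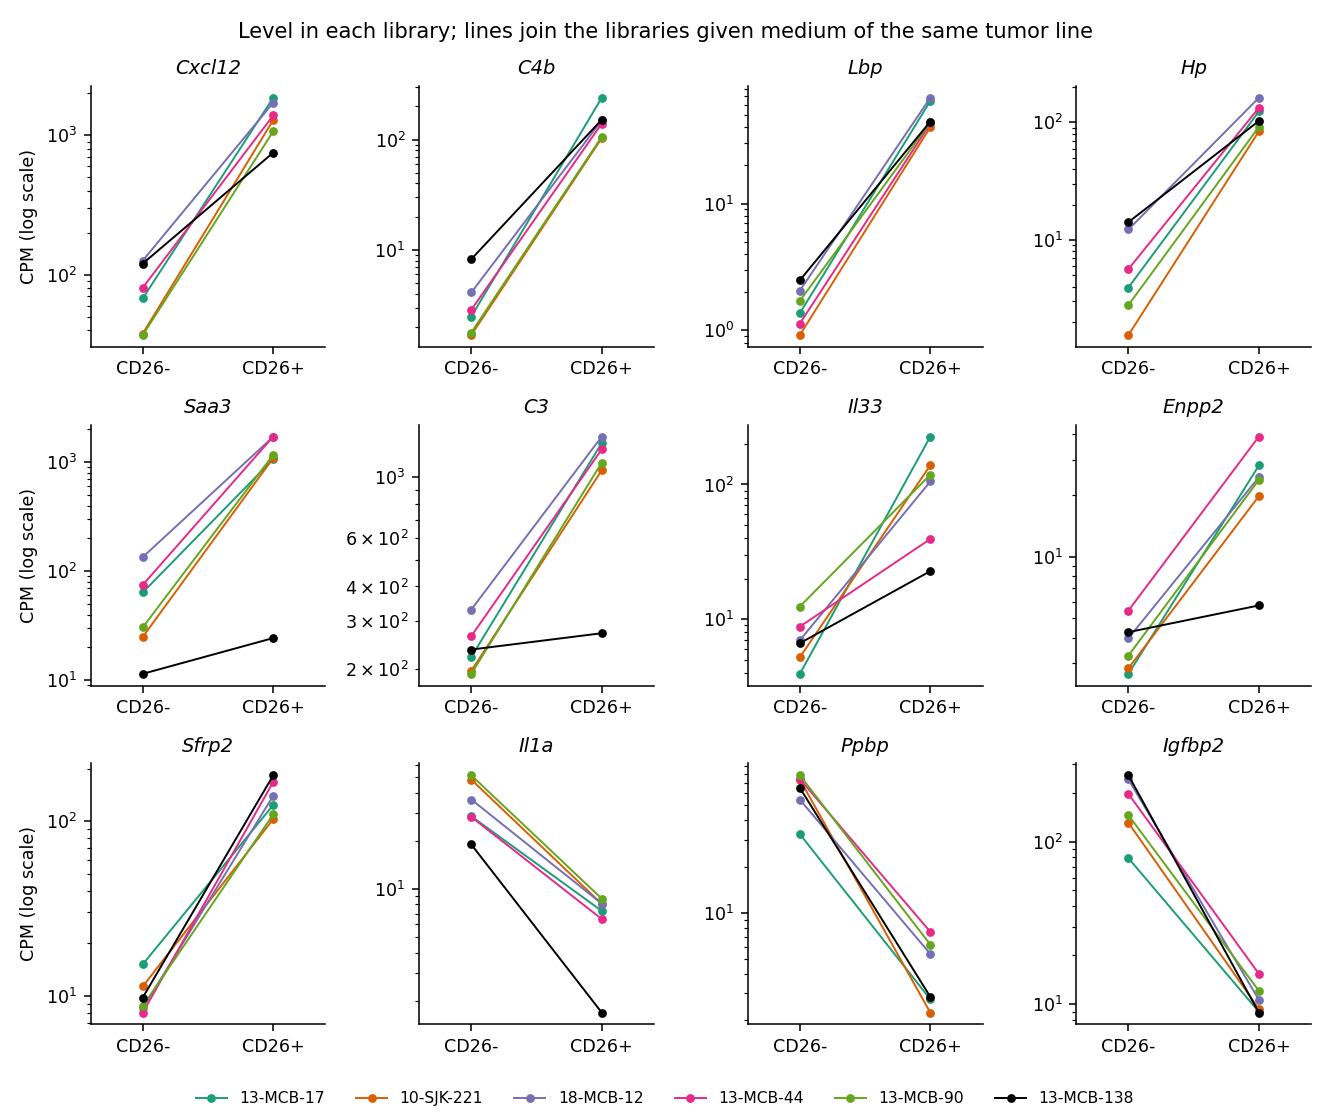
CPM (log scale) of 12 genes in the 12 libraries, with a line joining the CD26- and the CD26+ library that received medium of the same tumor cell line. Saa3, C3, Il33 and Enpp2 have their lowest CD26+ value in line 13-MCB-138 (black), 24.4 CPM for Saa3, and Il1a, Ppbp and Igfbp2 are lower in CD26+ NFs in each pair.

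The promoters of Saa3 and C3 are printed because both genes, higher in CD26+ NFs and with their lowest CD26+ value in line 13-MCB-138, hold the C/EBP-type motif that acute-phase regulators are known to bind. The windows are as above, and capitals mark TTNNGCAA, searched on both strands, where it reads TTGCNNAA on the other.
Saa3 (chr7:46715627-46715926, minus strand): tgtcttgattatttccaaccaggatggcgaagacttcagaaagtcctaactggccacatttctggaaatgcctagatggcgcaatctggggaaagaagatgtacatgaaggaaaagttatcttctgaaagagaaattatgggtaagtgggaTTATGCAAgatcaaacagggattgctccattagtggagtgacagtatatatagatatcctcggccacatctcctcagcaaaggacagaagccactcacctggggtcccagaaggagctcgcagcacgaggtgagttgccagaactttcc
C3 (chr17:57228087-57228386, minus strand): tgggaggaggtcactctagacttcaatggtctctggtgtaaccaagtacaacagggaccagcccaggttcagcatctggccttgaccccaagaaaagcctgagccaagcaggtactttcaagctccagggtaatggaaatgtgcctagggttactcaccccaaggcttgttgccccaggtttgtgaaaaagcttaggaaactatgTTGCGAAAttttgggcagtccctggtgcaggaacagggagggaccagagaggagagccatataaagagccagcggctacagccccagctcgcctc
The match starts 99 bases before the transcription start of Saa3 and 45 bases before that of C3. Promoters of 7 of the 11 acute-phase and complement genes past both limits were matched, and C4b, C4a, Lbp and Hp had no window. Of the 7, 6 (C1ra, C1s1, C3, Ptx3, Saa3 and Steap4) held the motif, which occurred in 10.8% of 32851 windows. A gene counted if any of its windows held the motif, but the share is over single windows, so these measures are unlike. A match of letters is a description and not a bound site. The genes of the C/EBP factors themselves were Cebpa (1.68 ± 0.10), Cebpd (1.26 ± 0.09) and Cebpb (0.71 ± 0.09), all higher in CD26+ NFs. A link between these factors and the genes with the motif was not tested.

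Chemokines direct leukocytes along gradients. Of 15 chemokine ligand genes tested 7 were higher, 3 were lower and 5 did not pass the FDR, with a median log2 fold change of 0.17. Beside Cxcl12, Ccl9 ran from 3.02 to 5.58 CPM (median 3.38) in CD26- NFs and from 17.5 to 58.6 CPM (median 34.2) in CD26+ NFs (3.05 ± 0.18). The monocyte chemoattractant genes Ccl8 (1.34 ± 0.24), Ccl2 (1.14 ± 0.16) and Ccl7 (0.66 ± 0.12), the fractalkine gene Cx3cl1 (1.06 ± 0.11) and the neutrophil chemokine gene Cxcl5 (1.02 ± 0.22) were higher. Lower were Cxcl14 (-1.10 ± 0.07), Cxcl16 (-0.76 ± 0.11) and the eotaxin gene Ccl11 (-0.54 ± 0.13), whereas Cxcl1 (0.17 ± 0.20) did not pass. Ppbp, the chemokine gene described above, is not on this list and fell further than its members (-3.83 ± 0.20). Cytokine genes moved in both directions, with 6 higher and 10 lower of 17 tested and a median of -0.89. Il33, an alarmin gene, ran from 3.94 to 12.4 CPM (median 6.82) in CD26- NFs and from 22.8 to 227 CPM (median 112) in CD26+ NFs (3.66 ± 0.44). The interleukin-1 receptor antagonist gene Il1rn was higher by 2.78 ± 0.33 with overlapping groups, and Tnfsf11, the ligand of RANK, by 2.60 ± 0.19. Il1a, the interleukin-1 agonist gene, ran from 19.0 to 51.4 CPM (median 32.4) in CD26- NFs and from 1.68 to 8.69 CPM (median 7.67) in CD26+ NFs (-2.40 ± 0.14). Its CD26- values all lay above the CD26+ values. Tslp (-2.13 ± 0.19), the granulocyte factor gene Csf3 (-2.13 ± 0.14) and Tnf (-2.25 ± 0.41) were also lower, and so by less were Il11 (-1.18 ± 0.09) and Lif (-1.05 ± 0.09). Il6 was higher by 0.53 ± 0.20 and Csf1 by 0.20 ± 0.08.

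Interferon-stimulated genes went in both directions, with log2 fold changes from -1.11 to 0.52. Of 17 tested 4 were higher, 4 lower and 9 not past the FDR, with a median of -0.04. Stat2 (0.45 ± 0.08) was higher, and Irgm1 (-0.67 ± 0.13) and Ifit2 (-0.35 ± 0.07) were lower. Gbp2 had a log2 fold change of 0.47 ± 0.17 with an FDR of 0.0377, which missed the limit when any 1 of 5 pairs was left out (FDR up to 0.11).

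Genes of the extracellular matrix were mostly higher in CD26+ NFs. Of 19 interstitial collagen genes tested 16 were higher and 1 lower, with a median of 1.38. The fibrillar collagen gene Col3a1 ran from 622 to 2285 CPM (median 1076) in CD26- NFs and from 3094 to 12842 CPM (median 5557) in CD26+ NFs (2.39 ± 0.08), Col14a1, a collagen of the fibril surface, from 1.48 to 6.30 CPM (median 4.42) in CD26- NFs and from 14.8 to 58.5 CPM (median 29.4) in CD26+ NFs (3.07 ± 0.11), and Col1a1 was higher by 1.43 ± 0.10. The groups did not overlap for Col3a1 and Col14a1 and overlapped narrowly for Col1a1. The collagen VI genes Col6a1 (1.82 ± 0.06), Col6a2 (1.88 ± 0.07) and Col6a3 (1.48 ± 0.13) moved together, whereas Col7a1, which anchors epithelial basement membrane, was lower (-0.90 ± 0.05). Proteoglycan and matricellular genes numbered 17 higher, 0 lower and 5 not past the FDR (median 0.96). Prelp, a small leucine-rich proteoglycan gene, ran from 6.61 to 20.1 CPM (median 15.5) in CD26- NFs and from 85.0 to 170.2 CPM (median 134) in CD26+ NFs (3.26 ± 0.25), Sparcl1 from 2.06 to 3.54 CPM (median 2.92) in CD26- NFs and from 16.4 to 49.5 CPM (median 17.9) in CD26+ NFs (2.91 ± 0.16), and Postn, the periostin gene, was higher by 0.99 ± 0.08. In CD26+ NFs the highest Sparcl1 value was that of line 13-MCB-17. Elastic fiber genes had 19 of 20 members higher, none lower and a median of 1.03. Fbln1 (2.33 ± 0.05) and the microfibril gene Mfap2 (1.88 ± 0.09) led, the cross-linking enzyme gene Lox was higher by 1.24 ± 0.09, elastin itself (Eln) by 0.52 ± 0.11, and Ltbp1 did not pass (-0.11 ± 0.08).

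Of 21 basement membrane genes tested 10 were higher and 8 lower, with a median of -0.05. Nid2 ran from 30.4 to 81.3 CPM (median 41.8) in CD26- NFs and from 204 to 364 CPM (median 274) in CD26+ NFs (2.59 ± 0.21), and the laminin chain genes Lama4 (1.54 ± 0.10) and Lamc1 (0.86 ± 0.08) were higher. Other laminin chain genes were lower: Lama5 (-2.12 ± 0.10), Lama3 (-1.99 ± 0.18) and Lamb3 (-1.80 ± 0.15). Lamb3 is itself one of the basal epithelial markers above. Lama5 and Lama3 moved in the same direction as those markers, and the part of epithelial transcripts in it was not tested. Col4a2 had a log2 fold change of -0.24 ± 0.08, which missed the limit without the block (FDR 0.195) and without either of 2 pairs (replicates 6 and 15, or 7 and 16, FDR up to 0.0759). Of 20 matrix metalloproteinase and Timp genes 9 were higher and 4 lower (median 0.30). Mmp2 ran from 416 to 518 CPM (median 465) in CD26- NFs and from 958 to 1328 CPM (median 1151) in CD26+ NFs (1.30 ± 0.04), and Mmp23 (1.74 ± 0.11) and the inhibitor gene Timp3 (0.78 ± 0.11) were higher. Mmp24 (-2.66 ± 0.15) and the collagenase gene Mmp8 (-1.39 ± 0.12) were lower, and Mmp3 (-0.43 ± 0.38) and Mmp9 (-0.28 ± 0.26) did not pass the FDR.

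The identity of the cells was examined with fibroblast lists. Of 10 pan-fibroblast markers 8 were higher in CD26+ NFs, none was lower, and the median was 1.12. Their summed level ran from 9526 to 21240 CPM in CD26- NFs and from 25589 to 50995 CPM in CD26+ NFs. Pdgfra, a growth factor receptor gene common to fibroblasts, was higher by 1.15 ± 0.10 and Thy1 by 1.19 ± 0.09, whereas Vim (0.10 ± 0.04) did not pass. The universal progenitor list, which describes the CD26+ fibroblasts of several tissues, was divided, with 10 of 17 higher, 5 lower and a median of 0.77. Pi16, Ly6c1 (2.42 ± 0.10), which has close copies, and Dpt (1.90 ± 0.09), a matrix protein gene, were higher. The guidance ligand gene Sema3c (-1.59 ± 0.11) and Cd55 (-1.23 ± 0.08) were lower, and Cd34 (-0.33 ± 0.18), another marker of this type, did not pass. The study names matrix genes of both NF types from single-cell data of other samples. All 5 genes named for CD26+ NFs were higher, from Fn1 (0.57 ± 0.07) to Dpt, among them Emilin2 (0.92 ± 0.09). Of 9 genes named for CD26- NFs 4 were higher in CD26+ NFs, led by Sparcl1, Dcn and Col5a3 (1.89 ± 0.16), 1 was lower (Col4a2) and 4 did not pass. Dcn ran from 495 to 940.5 CPM (median 688) in CD26- NFs and from 1366 to 4384 CPM (median 3982) in CD26+ NFs, with the lowest CD26+ value in line 13-MCB-138.

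Of 38 mesenchymal transcription factor genes tested 26 were higher and 7 lower, with a median log2 fold change of 0.38 and a range from -2.28 to 2.87. En1, which marks a lineage of dermal fibroblasts, ran from 10.3 to 14.3 CPM (median 11.1) in CD26- NFs and from 15.0 to 32.8 CPM (median 26.8) in CD26+ NFs (1.14 ± 0.11). Ebf3 (1.34 ± 0.08), Tbx15 (1.16 ± 0.05), Snai1 (1.09 ± 0.08) and Prrx1 (0.82 ± 0.07) were higher, and Osr2 was the only factor past the log2 limit in that direction (2.87 ± 0.20). The T-box gene Tbx18 was higher by 1.02 ± 0.08. Msx2 (-1.92 ± 0.21), Foxf1 (-1.53 ± 0.11), a target of hedgehog signaling in gut mesenchyme, and Gata4 (-2.28 ± 0.37) were lower. Hox genes, which record position along the body axis, numbered 16 higher and 1 lower of 27 tested with a median of 0.45, and none passed the log2 limit. Hoxa10 was higher by 0.78 ± 0.08 and Hoxc9 by 0.70 ± 0.11. Hoxb4 (-0.32 ± 0.10) had an FDR of 0.0159, which missed the limit without replicates 6 and 15 or 8 and 17 (up to 0.0555).

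Signaling genes were taken by pathway. Secreted Wnt antagonists, which bind Wnt proteins or their receptors, had a median of 2.35, the highest among the lists with more than 1 gene, with 4 of 7 higher and 3 lower. Sfrp2 ran from 8.00 to 15.1 CPM (median 9.23) in CD26- NFs and from 103 to 183 CPM (median 132) in CD26+ NFs (3.73 ± 0.18), Sfrp4 was higher by 4.31 ± 0.27, Notum, which inactivates Wnt proteins, by 2.67 ± 0.11, and Sfrp1 by 2.35 ± 0.13. Frzb was lower at -1.36 ± 0.17, and Dkk2 (-0.51 ± 0.16) missed the FDR limit without replicates 5 and 14 or 6 and 15 (up to 0.0607). Of 18 Wnt ligands and targets 6 were higher and 6 lower (median -0.08), near the shares over all tested genes. Wnt10a (-2.91 ± 0.17) and Wnt7b (-2.13 ± 0.11), ligands of epithelium among other tissues, were lower and Wnt16 was higher (3.54 ± 0.17). The feedback inhibitor gene Nkd1 was higher (0.91 ± 0.16) and the target gene Axin2 did not pass (-0.14 ± 0.10). Wnt2 had a log2 fold change of 0.41 ± 0.15, with an FDR of 0.188 without the block and of up to 0.0983 when any 1 of 5 pairs was left out.

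In the transforming growth factor beta (TGF-beta) and BMP pathway 14 of 26 genes were higher and 5 lower (median 0.40). Tgfbi, a matrix protein gene induced by TGF-beta, ran from 20.3 to 58.2 CPM (median 34.0) in CD26- NFs and from 205 to 391 CPM (median 284) in CD26+ NFs (3.12 ± 0.16). The BMP antagonist genes Nog (1.44 ± 0.19) and Chrdl1 (4.68 ± 0.44) were higher, whereas the antagonist gene Grem1 (-0.90 ± 0.10, FDR 0.0526 without the block) and the activin subunit gene Inhba (-0.73 ± 0.08) were lower. The ligand gene Tgfb1 did not pass (0.09 ± 0.05). Among growth factors for epithelium, Fgf10 (0.97 ± 0.07) and Hgf (0.95 ± 0.07) were higher, and Met, the receptor gene of Hgf, was lower, from a median of 139.6 to 33.5 CPM (-2.16 ± 0.11). Of 14 fibroblast and hepatocyte growth factor genes 7 were higher and 4 lower. All 14 insulin-like growth factor genes tested passed the FDR, 10 higher and 4 lower (median 0.64). Their binding proteins diverged. Igfbp3 ran from 12.7 to 28.8 CPM (median 23.1) in CD26- NFs and from 86.7 to 278 CPM (median 164) in CD26+ NFs (2.95 ± 0.20) and Igfbp4 was higher by 1.43 ± 0.24, while Igfbp2 and Igfbp5 were lower. Of 13 hedgehog genes 6 were higher and 3 lower (median 0.05). The co-receptor genes Gas1 (2.53 ± 0.11) and Cdon (0.93 ± 0.05) were higher, the inhibitor gene Hhip (-1.67 ± 0.32) and the ligand gene Dhh (-2.70 ± 0.38) were lower, and the target gene Ptch1 did not pass (-0.02 ± 0.06).

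Contractile genes, which myofibroblasts use to exert force, were lower or not past the FDR apart from Vcl. Of 18 tested 14 were lower and 1 higher, with a median of -0.43. Acta2, the smooth muscle actin gene and the usual marker of myofibroblasts, ran from 1466 to 3330.3 CPM (median 2059.8) in CD26- NFs and from 1088 to 2863 CPM (median 1767) in CD26+ NFs, so that the groups overlapped, and its log2 fold change was -0.25 ± 0.07 (FDR 0.0112). Actg2 (-1.07 ± 0.13), Cnn1 (-0.72 ± 0.08), Tpm2 (-0.65 ± 0.05) and Tagln (-0.41 ± 0.07) were lower as well, and the largest change, Des, was also a muscle marker. Vcl, the gene of the adhesion protein vinculin, was higher by 0.40 ± 0.08. Cell cycle genes were lower in CD26+ NFs, with 17 of 27 lower, 1 higher and a median of -0.57. Mki67, the proliferation marker gene, ran from 152 to 258 CPM (median 220.1) in CD26- NFs and from 59.8 to 208 CPM (median 106) in CD26+ NFs (-0.97 ± 0.18). The mitotic genes Aurka (-1.36 ± 0.17) and Ccnb2 (-1.32 ± 0.18) led, the cyclin gene Ccnd1 was lower at -1.25 ± 0.09, and the related Ccnd2 was the only one higher (0.74 ± 0.07). The part of proliferation in the other differences was not tested. Among 13 adipogenic and fat cell genes 9 were higher and 2 lower (median 0.89). Lpl ran from 199.6 to 493 CPM (median 237) in CD26- NFs and from 1165 to 1686 CPM (median 1277) in CD26+ NFs (2.25 ± 0.13), and the lipid droplet gene Plin1 was higher by 4.29 ± 0.35, or by 5.17 without replicates 9 and 18. The fasting-induced kinase gene Pdk4 (-2.22 ± 0.08) and the droplet gene Plin2 (-1.57 ± 0.08) were lower, and the regulator gene Pparg did not pass (-0.03 ± 0.10).

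**Figure D4:**
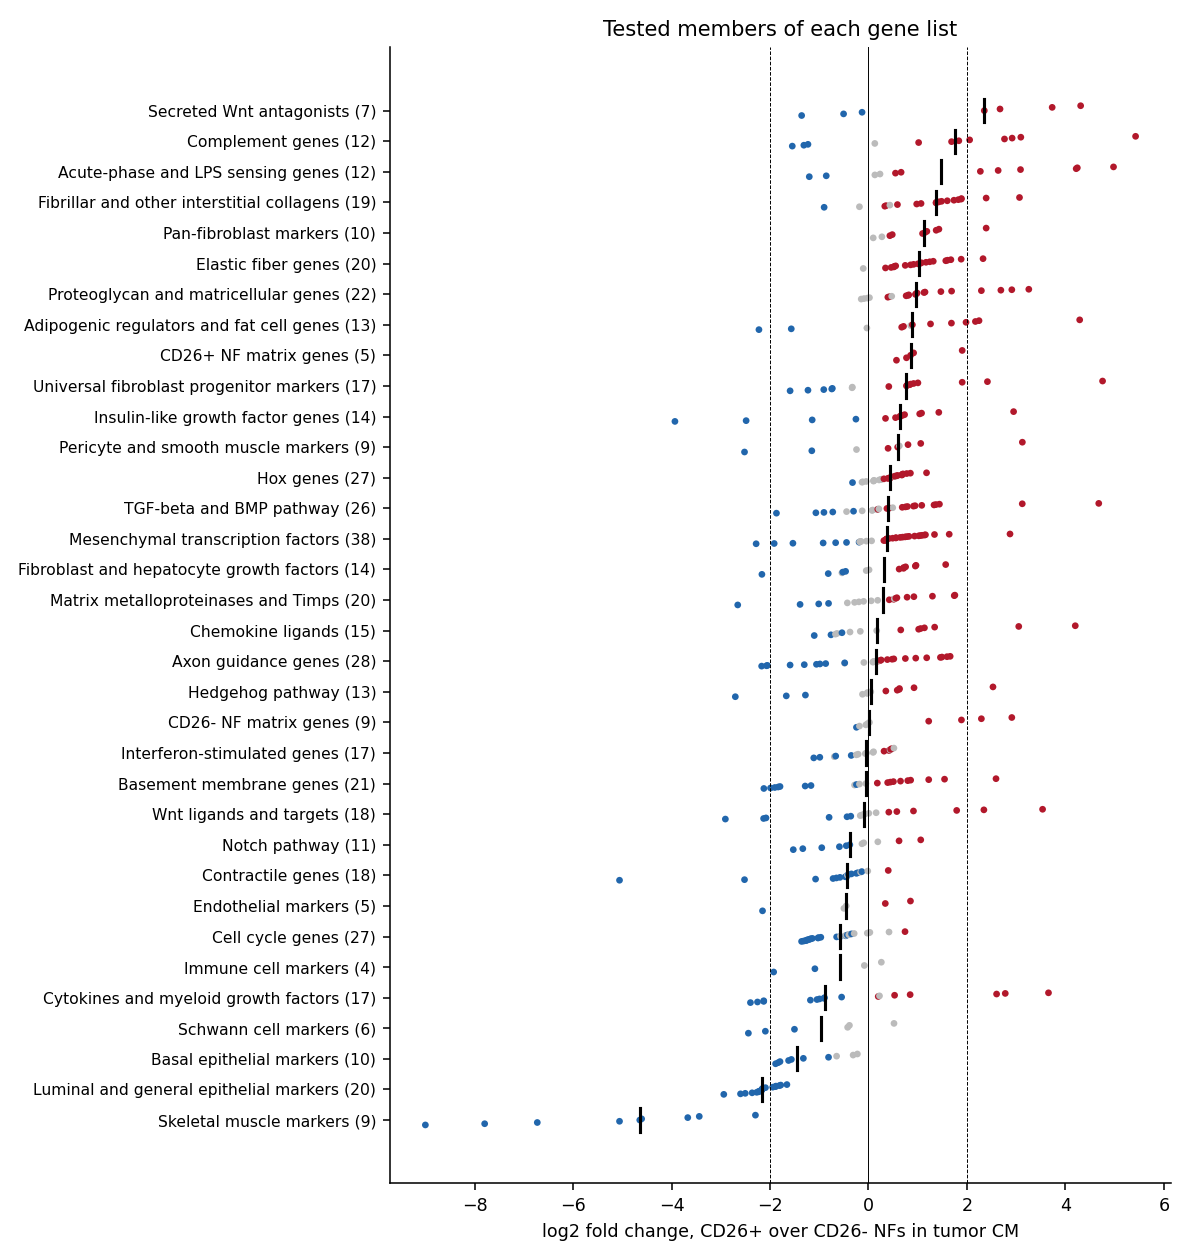
Log2 fold change of CD26+ over CD26- NFs in tumor CM (horizontal axis) for the tested members of each gene list with at least 4 tested members, 1 point per gene, with the number tested in parentheses. Red and blue points passed the FDR in either direction, gray points did not, black bars are list medians, which run from -4.65 for skeletal muscle to 2.35 for secreted Wnt antagonists, and Myh3 is drawn at the left edge.

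To see which of these differences were already present without tumor medium, the 472 genes were set beside the 3 CD26- and 3 CD26+ libraries in control medium, in a fit of all 18 libraries by group over 14273 genes. There the FDR alone took 3567 genes (25.0%) as higher in CD26+ NFs and 3619 (25.4%) as lower. Of the 472 genes, 428 passed the FDR there in the same direction, 1 in the other direction and 43 not at all, 28 of them higher and 15 lower in tumor CM. Whether the difference in tumor CM departed from that in control medium was tested as an interaction, the difference of the 2 log2 fold changes, which was positive for 646 of the 14273 genes (4.53%) and negative for 429 (3.01%). Among the 472 genes the interaction passed for 21, which was 10 higher genes with a positive and 10 with a negative interaction, and 1 lower gene, Tnfsf8 (-1.55 ± 0.36). With the line as a block the interaction was positive for 1344 genes and negative for 1172, and passed for 61 of the 472. Of the 472 it passed for 41 with DESeq2, for 38 without replicate 18 and for 12 without control replicate 2, 3 or 11. Its count over all genes also rested on single libraries. It was 1143 positive and 1202 negative without CD26+ replicate 18 (line 13-MCB-138), and without a control replicate (1, 2, 3, 10, 11 or 12) it ran from 211 to 377 positive and from 128 to 289 negative genes, both lowest without replicate 11.

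The genes whose difference was larger in tumor CM included inflammatory ones. C3 stood at 81.2 ± 3.77 CPM (SD over 3 libraries) in CD26- NFs and 72.3 ± 6.50 CPM in CD26+ NFs in control medium, against medians of 229 and 1196 CPM in tumor CM, an interaction of 2.34 ± 0.46 (SE, FDR 0.00669). Il33 stood at 9.42 ± 1.82 and 10.7 ± 4.55 CPM in control medium (interaction 3.71 ± 0.83, FDR 0.0137). Enpp2 stood at 4.86 ± 0.882 and 4.68 ± 0.815 CPM (2.72 ± 0.58, FDR 0.0104), and the PDZ domain gene Pdzd2 at 5.09 ± 1.31 and 3.77 ± 0.239 CPM (2.63 ± 0.48, FDR 0.00511). For these 4 genes the difference in control medium did not pass the FDR (0.379 to 0.936). Il33 missed the limit without control replicate 3 (FDR 0.0538). Cxcl12 differed in both media, at 37.9 ± 1.52 and 211 ± 17.1 CPM in control medium (log2 fold change 2.48 ± 0.41), with an interaction of 1.63 ± 0.48 (FDR 0.0476). That FDR was the largest of the 21 genes, and the Cxcl12 interaction without single libraries is not given. Of the 21 genes, 12 passed without control replicate 2, 3 or 11. The protease inhibitor gene Serpina3f, which has close copies, had an interaction of 1.66 ± 0.38 and the hypoxia factor gene Epas1 one of 1.15 ± 0.28. For Saa3 the interaction did not pass (2.74 ± 4.12, FDR 0.73), and in control medium its level was 0.293 ± 0.209 CPM in CD26- NFs and 0.907 ± 0.703 CPM in CD26+ NFs.

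The 4 genes named next, of those past both limits in tumor CM, were higher in CD26+ NFs in both media by less in tumor CM. Sfrp2 stood at 4.51 ± 0.681 and 276 ± 40.2 CPM in control medium (log2 fold change 5.95 ± 0.28), and the interaction was -2.19 ± 0.32 (FDR 0.00227). The prostaglandin receptor gene Ptgfr (-1.24 ± 0.26, FDR 0.0101), the ciliary rootlet family gene Crocc2 (-1.61 ± 0.39, FDR 0.0191) and Apln (-1.60 ± 0.39, FDR 0.0206), which encodes the peptide ligand apelin, followed. Crocc2 missed the limit without control replicate 3 or 11 (FDR up to 0.075), and Apln without control replicate 2, 3 or 11 (FDR up to 0.08). By list, beside 4.53% positive and 3.01% negative over all genes, the interaction was positive for 6 and negative for 0 of 15 chemokine genes, positive for 5 and negative for 0 of 17 interferon-stimulated genes, and positive for 5 and negative for 2 of 20 metalloproteinase and Timp genes, and no other list had 5 positive or 5 negative members. A positive interaction can also stand for a smaller fall, as for Cxcl16 (-1.99 ± 0.18 in control medium, -0.76 ± 0.11 in tumor CM) and Irgm1 (-1.56 ± 0.19 and -0.67 ± 0.13). It passed for none of the 10 basal and 20 luminal epithelial markers tested, which does not show that their difference was alike in both media. For the 9 skeletal muscle markers it did not pass either. Only Acta1 among them had more than 10 counts in any CD26+ library in tumor CM (interaction -0.17 ± 0.40), and for the others the interaction was loose, at -3.46 ± 1.33 for Des and -2.37 ± 1.08 for Chrna1. In CD26- NFs the mean level in control medium was 0.59 ± 0.383 CPM for Myh3, 0.916 ± 0.161 CPM for Des and 1.17 ± 0.301 CPM for Chrna1, against medians of 10.2, 7.83 and 6.14 CPM in tumor CM, and this difference between media was not tested.

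**Figure D5:**
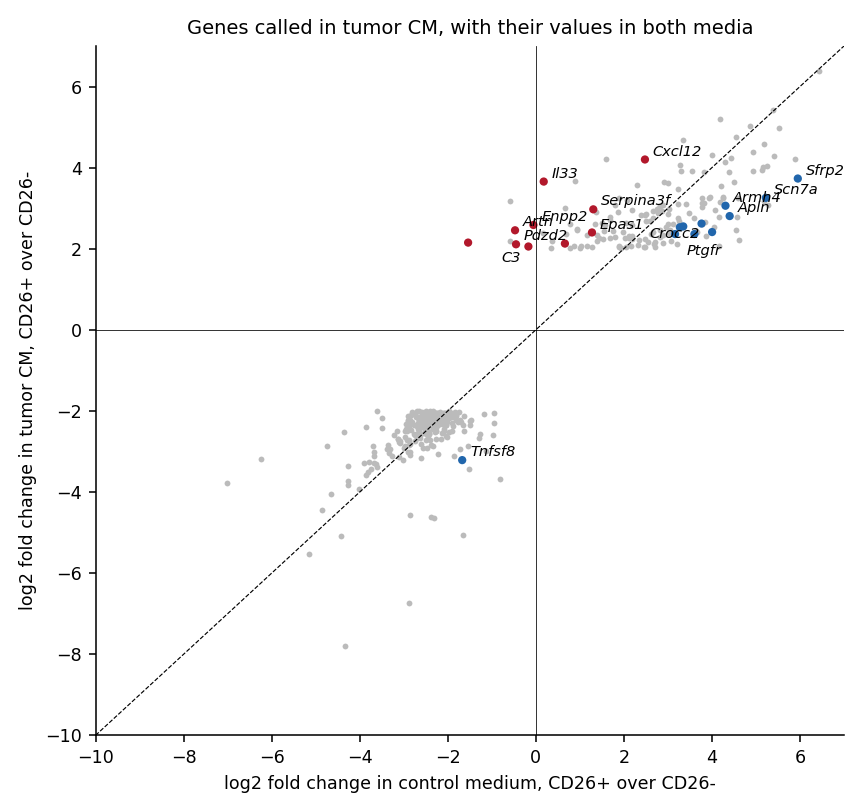
Log2 fold change of CD26+ over CD26- NFs in tumor CM (vertical axis) against that in control medium (horizontal axis) for the genes past both limits in tumor CM, 1 point per gene, with the dashed line marking equal values. The 20 colored points above 0 have a positive (red) or negative (blue) interaction at the FDR, Tnfsf8 is the colored point below 0, 3 genes with no count in CD26+ NFs in tumor CM are left out and 2 lie beyond the axes.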

How the data were processed

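RNA of sorted and cultured NFs was sequenced from stranded mRNA libraries. The deposited values are raw counts of reads per gene, which the authors made with HISAT2 2.1.0 and HTSeq on GRCm38, per the labels. The strand setting and the annotation release are not given in the sources used here, so overlapping and antisense genes are uncertain. Of 55486 genes, those passing edgeR's filter by cell type (13344) were fitted on TMM-scaled counts with edgeR 4.0.16 in R 4.3.3 as tumor line plus cell type. Genes were called at an FDR under 0.05 and a log2 fold change beyond 2, the limits the study uses. The interaction was fitted on all 18 libraries by group (14273 genes). In samples of the same line, deviations from the group mean correlated (r of 0.292 to 0.456 over genes, each library highest with its own line), so the line was taken to pair them. The 12 libraries hold 11240481 to 13890291 counts. Counting intervals and floors (3 counts) cover counting error only.

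Named genes were the 10 largest and 10 smallest log2 fold changes of at least 10 CPM with groups apart. Added were the 5 of highest mean CPM in either direction. Genes of at least 10 CPM past both limits gave the 4 of smallest interaction p in either direction. They also gave the 3 most variable over lines. Each list gave the 2 largest and 2 smallest past the FDR with at least 5 CPM, and the defining markers were added. The largest FDR of the 126 genes so taken was 0.0377. Other genes in the text are members of the 35 gene lists or belong to a count, and Serpina3f, Epas1 and Tnfsf8 were chosen after their values were seen. The comparison and the lists were chosen with earlier results of these data known. Some genes taken by these rules, and an allele of the tumor model, are not reported here. Promoters are RefSeq windows (GRCm38.p6). Alternatives were other scalings, filters and limits, DESeq2 1.42.0, no block, an epithelial covariate, and leaving out each pair or library. Leaving out the marker genes was added after seeing the data.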

Additional observations from a re-analysis of the deposited data

Results flagged for a closer look

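Among 252 groups of 6 libraries looked at for the named genes, 19 held a library set apart from the other 5 by Dixon's test at 95%, where chance gives about 1 group in 20. Of these, 8 were CD26+ replicate 18, the library of line 13-MCB-138. Its values were the lowest of its group for Saa3 (24.4 CPM, others 1067.5 to 1723), C3 (270.4 CPM), Dcn (1366 CPM), Enpp2 (5.76 CPM), C1s1 (88.0 CPM), Il1a (1.68 CPM), Lcn2 (7.09 CPM) and En1 (15.0 CPM). Its pair, CD26- replicate 9, was lowest for Lcn2 (3.72 CPM, others 58.8 to 182). CD26+ replicate 13 of line 13-MCB-17 was highest for Sparcl1 (49.5 CPM), Notch3 (38.9 CPM) and Myog (0.0759 CPM, which is 1 count) and lowest for Cd55 (7.66 CPM). CD26- replicate 4 of the same line was lowest for Pdyn (4.1 CPM), Cd55 (22.8 CPM) and Masp1 (68.3 CPM) and highest for Pdzd2 (8.45 CPM). The lowest Hgf value among CD26- NFs was 54.0 CPM in replicate 7, and the lowest Jag2 value among CD26+ NFs was 0.448 CPM in replicate 14.

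The difference between CD26+ and CD26- NFs departed from that in control medium, by the interaction at the FDR, for 18 of 126 named genes, beside 4.53% positive and 3.01% negative over all genes. Of the named genes, 4 with a positive and 4 with a negative interaction had been taken for its small p (Il33, Enpp2, Pdzd2, C3, Sfrp2, Crocc2, Apln and Ptgfr), so the share is raised by the choice. The interaction was positive on the log2 scale for Il33 (3.71), Enpp2 (2.72), Pdzd2 (2.63), Flt1 (2.35), C3 (2.34), Gbp2 (1.87), Cxcl12 (1.63), Cxcl16 (1.25), Dkk2 (1.06) and Irgm1 (0.883). It was negative for Sfrp2 (-2.19), Crocc2 (-1.61), Apln (-1.60), Plxna4 (-1.58), Ptgfr (-1.24), Ccnb2 (-0.881), Gas1 (-0.732) and Mmp2 (-0.692).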

How the results depend on the processing

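The 171 higher and 301 lower genes stayed within 1.5 times under DESeq2, relative log expression or upper-quartile scaling, no block (467 of the 472 called again), a fit of all 18 libraries, without the epithelial and muscle markers, and without any 1 pair, where 165 to 191 were higher and 270 to 325 lower. Without a filter 282 were higher and 526 lower, at 5 CPM or more 111 were higher, and at a log2 limit of 1 there were 687 and 1041. With the epithelial covariate 1 was higher and 0 lower, at both limits and at the FDR alone. With it all 126 named genes missed the FDR, and 8 changed sign: Stat2 (-0.28), Myh11 (0.43), Lama3 (0.46), Dkk2 (1.01), Inhba (0.066), Jag2 (0.70), Hoxc9 (-0.22) and Mcam (0.23). The cause was not tested, and that fit leaves few degrees of freedom beside a covariate that separates the cell types.

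The interaction count (646 positive, 429 negative) was 1344 and 1172 with a replicate block for the line, and without 1 library it ran from 211 to 1143 positive and from 128 to 1202 negative. Without the block, Col4a2, Lcn2, Wnt2 and Grem1 missed the FDR, and the block changed no other call of a named gene. Genes under about 1 CPM rest on few counts and their log2 fold changes are loose.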

Other observations

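Genes of axon guidance and of the Notch pathway are given beside the 30.2% higher and 30.5% lower of all tested genes in tumor CM. Axon guidance molecules steer growing axons and are also made by fibroblasts. Of 28 tested, 13 were higher and 9 lower at the FDR, with a median log2 fold change of 0.15 beside -0.01 over all tested genes. The ephrin receptor gene Epha7 (1.59 ± 0.16, SE, n = 6 pairs), the plexin gene Plxna4 (1.49 ± 0.11) and the Slit gene Slit3 (1.18 ± 0.09) were higher. The class 3 semaphorin genes Sema3f (-2.17 ± 0.12) and Sema3e (-2.07 ± 0.16) were lower, as was the netrin gene Ntn1 (-1.30 ± 0.11). Sema3f ran from 55.2 to 99.2 CPM (median 69.4) in CD26- NFs and from 8.95 to 25.3 CPM (median 15.3) in CD26+ NFs, with no overlap.

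The Notch pathway passes signals between touching cells. Of 11 genes tested, 6 were lower, 2 higher and 3 not past the FDR, with a median of -0.38. All 3 of the tested ligand genes were lower, Jag2 at -1.53 ± 0.22, Dll1 at -1.33 ± 0.14 and Jag1 at -0.95 ± 0.08, together with the target gene Hes1 (-0.59 ± 0.06), whereas the receptor gene Notch3 was higher (1.06 ± 0.11). Jag1 and Notch3 had medians of 186 to 95.3 CPM and 12.2 to 24.6 CPM in CD26- and CD26+ NFs.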
